A study of Mus musculus with 10 samples.

Results

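The extracellular matrix genes described here are 42 collagens, laminins and other matrix genes, listed as genes of fibroblast, meningeal and basement membrane matrix. They were chosen by name, with earlier results of these data known, so their shares beside those of all genes describe this list only. Each was read from the Mouse Genome 430 2.0 probe set of its symbol with the highest mean log2 signal over the 10 arrays. Of the 42 genes, 41 had a probe set of their own among the 18193 genes with a symbol on the array. The probe sets listed for Loxl2 also carry another symbol, so no value is given for it. The 36 genes whose mean lay at or above the median probe set were tested among 11397 genes, while Col1a1, Lama1, Lama2, Thbs1 and Dpt were too dim and are given as values only. The samples were primary cultures of cerebellar granule cell precursors, the dividing progenitors of cerebellar granule neurons, from mouse pups of postnatal days 5 to 7. Sonic hedgehog (Shh) is the mitogen these cells receive from Purkinje cells, and Bmi1 is a Polycomb group repressor. Arrays came from untreated wild type cultures (3), untreated Bmi1 -/- cultures (3), wild type cultures given Shh for 24 hours (2) and Bmi1 -/- cultures given Shh for 24 hours (2). All 4 groups shared the removal of meninges and vessels before dissociation and the growth medium with 10% fetal calf serum and 20 mM KCl for 24 hours. The Shh concentration is labelled as 3 mg/ml, and nothing in the labels tells whether the Shh cultures were older at harvest than the untreated ones. The cultures are called biological replicates, the number of animals in each is not stated, so the p-values given here cover the spread from array to array alone.

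The extracellular matrix is built of fibrillar collagens, of basement membranes in which collagen IV and laminin networks are joined by nidogen and perlecan, and of adhesive glycoproteins, proteoglycans and microfibrils. In the brain, fibrillar collagens and basement membranes belong mostly to the meninges, to vessels and to the glial surface, whereas the matrix between neurons is rich in tenascins and in proteoglycans such as versican. In the developing cerebellum, laminins of the pial basement membrane lie against the external granule layer, where granule cell precursors divide.

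The arrays had median signals of 84.8 to 91.2 in the untreated groups and 66.8 to 72.3 in the Shh groups, at the same trimmed mean of 500. The labelled cell type was borne out by its defining markers. Atoh1, the transcription factor that specifies granule cell precursors, had signals of 1431 to 2256 over the 10 arrays, and Zic1 had 11191 to 14587. The summed signal of 11 precursor markers was 47665 to 58703 on the untreated arrays and 52070 to 53658 on the Shh arrays. Markers of vessels, glia and fibroblasts were present as well, and their values are given below beside the matrix results. Bmi1 itself had signals of 3673 to 4515 on wild type arrays and 3416 to 3904 on knockout arrays, which overlap and lie far above the floor. These values do not check the genotype, since the labels do not say which exons the knockout lacks.

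With Shh, most matrix genes were lower in both genotypes. In wild type, 25 of 36 tested matrix genes fell and 0 rose (limma, Benjamini-Hochberg adjusted p under 0.05), where 19.8% of all tested genes fell and 14% rose (33.8% in either direction). In the knockout, 25 of 36 fell and 0 rose, against 17% and 11.1% of all genes (28.1% in either direction). Averaged over both genotypes, 29 of 36 fell and 0 rose, against 26.2% and 20.9% of all genes (47.1% in either direction). The median difference of the matrix genes was -1.33 on the log2 scale in wild type and -1.18 in the knockout, while the median of all genes was -0.01 in both. The genes that fell in both genotypes numbered 24, which is 96% of each genotype's list, and 1614 of all tested genes did so, which is 71.4% of the wild type list and 83.3% of the knockout list. In 26 of the 36 matrix genes all 4 Shh arrays lay below all 6 untreated arrays, as they did in 19.4% of all tested genes, and in 0 of the 36 did they all lie above, against 15.8%. Of the 36, Col6a1, Col6a3, Lama4, Nid2, Fndc1, Lum and Mmp2 passed the filter through their untreated arrays only, so a lower Shh value was built into their selection. For Thbs2 and Lox the mean of the untreated arrays lay under the filter, so the reverse holds for them. With no filter, 27 of 41 matrix genes fell in wild type, 28 in the knockout and 30 on average, against 12.4%, 10.4% and 17.8% of 18193 genes, and 0 rose, against 8.77%, 6.73% and 13.4%. At an unadjusted p under 0.05 (limma), 0 of the 36 were higher in any of these comparisons, against 19.4% of all genes in wild type, 17.4% in the knockout and 25.1% on average. Centring each array on its median moved the median average Shh difference of all genes to 0.31, and 27 of the 36 then fell, against 13.6% of all genes, while Col5a1, Hspg2 and Thbs2 passed as higher, against 55.2% of all genes. In cultures of mixed cells, fewer cells of a type and less RNA per cell cannot be told apart.

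**Figure D1:**
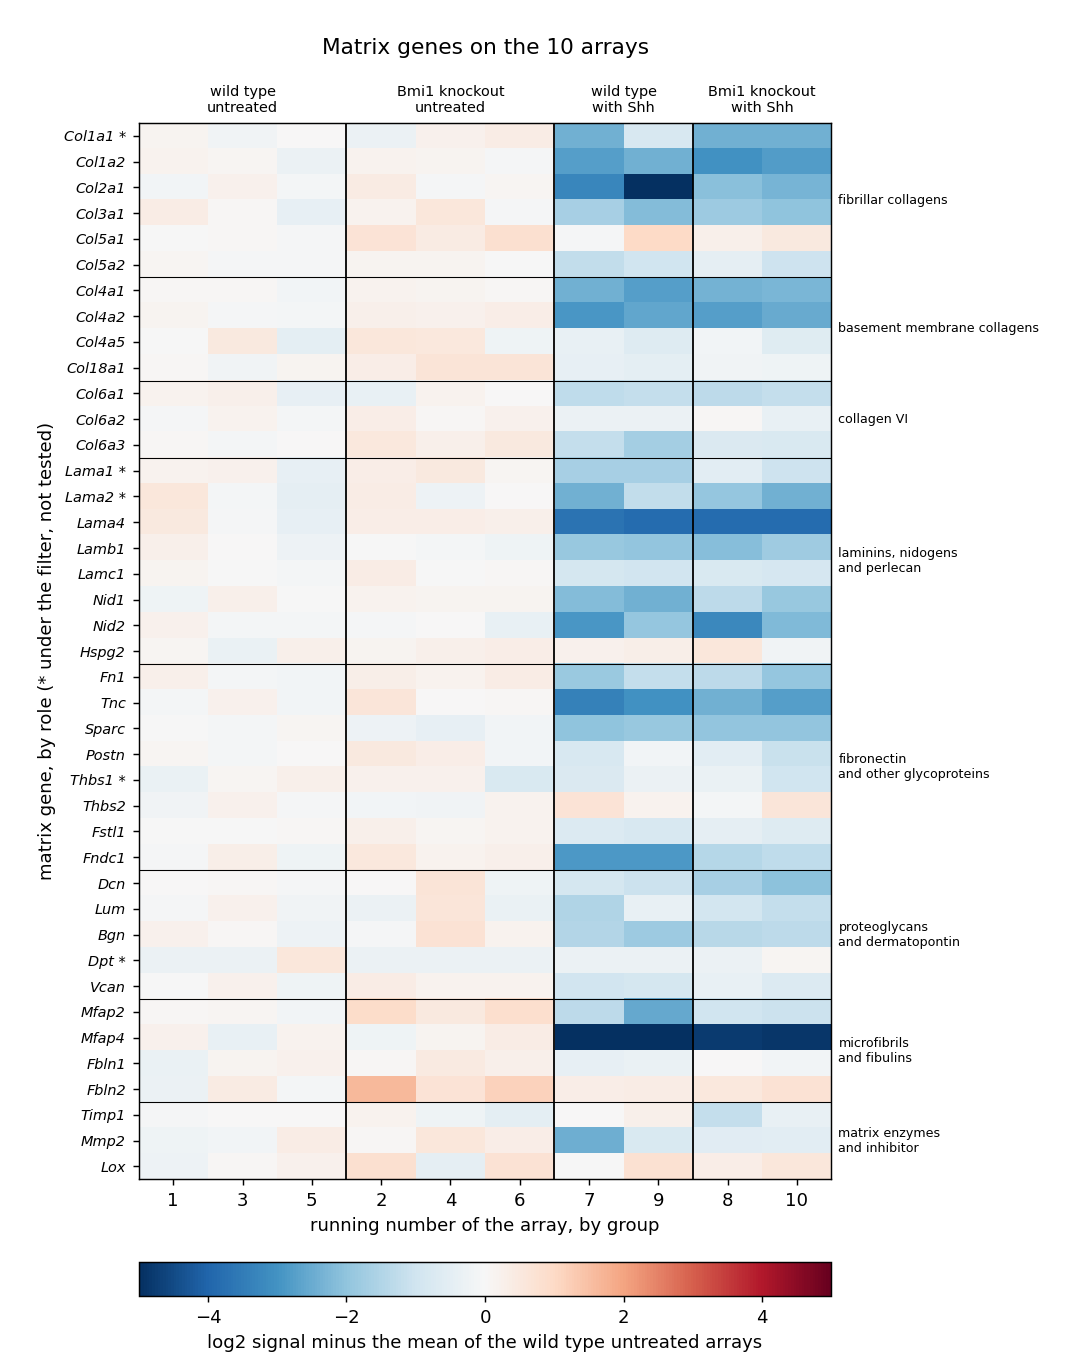
Log2 signal of 41 matrix genes on the 10 arrays, each minus the mean of the wild type untreated arrays, with genes in rows by role, arrays in columns by group and colour for the difference. Most rows are lower on all 4 Shh arrays, while rows such as Col5a1, Hspg2, Thbs2 and Lox are not, and genes with an asterisk were too dim to be tested.

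The fibrillar collagens form the tensile fibres of connective tissue. Of 6 listed, 5 were tested, and 4 fell with Shh on average, with a median of -2.03 on the log2 scale. Col2a1, the collagen of cartilage and embryonic notochord, had signals of 640.4, 822 and 660.2 on the wild type untreated arrays, 942, 680.0 and 759 on the knockout untreated arrays, 72.5 and 8.22 on the wild type Shh arrays, and 166 and 139 on the knockout Shh arrays. All 4 Shh arrays lay far below the untreated ones, and the lowest lay under the floor of 20.9 at which signals were set before log2 was taken. Col2a1 was at least 18.0-fold lower with Shh in wild type (-4.17 on the log2 scale, SE 0.42, limma adjusted p = 0.000124) and 5.18-fold lower in the knockout (-2.37, SE 0.42, adjusted p = 0.0031). Col1a2, a chain of type I collagen, ran from 465 to 653 on untreated arrays and from 69.7 to 107 on Shh arrays, an average fall of 6.92-fold (-2.79, SE 0.12, limma adjusted p = 5.18e-07). Its partner chain Col1a1, which was not tested, ran from 90.4 to 143 and from 5.58 to 63.9, again without overlap.

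Col3a1, which encodes the collagen of reticular fibres, ran from 467 to 919 on untreated and from 138 to 199 on Shh arrays and fell 4.08-fold on average (-2.03, SE 0.18, limma adjusted p = 3.24e-05). Col5a2, a chain of the collagen that starts fibril assembly, lies next to Col3a1 in the genome. Its signals were 1293, 1185 and 1179 in wild type, 1346, 1342 and 1209 in the knockout, 519.9 and 609 in wild type with Shh, and 901 and 592 in the knockout with Shh. The groups did not overlap between untreated and Shh cultures, and Col5a2 fell 1.96-fold on average (-0.97, SE 0.12, limma adjusted p = 0.000171). Col5a1, which encodes the partner chain of Col5a2, overlapped fully, with 191 to 345 on untreated and 191 to 393 on Shh arrays (average difference 0.11, SE 0.18, limma adjusted p = 0.661).

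Collagen IV is the network collagen of every basement membrane. Col4a1 had signals of 3024, 3025 and 2648 in wild type and 3264, 3154 and 3008 in the knockout, against 540.1 and 435 in wild type with Shh and 562 and 592 in the knockout with Shh. Col4a2 had 1113, 973 and 938 in wild type and 1208, 1178 and 1259 in the knockout, against 132 and 166 in wild type with Shh and 148 and 177 in the knockout with Shh. In both genes each Shh array lay far below each untreated one, and the Shh arrays of the genotypes were close together. Col4a1 fell 5.70-fold on average (-2.51, SE 0.08, limma adjusted p = 1.05e-07). Col4a2 fell 7.13-fold (-2.83, SE 0.09, limma adjusted p = 1.05e-07). Collagen IV trimers usually hold both chains, and the genes are transcribed away from each other from a common start region. Col4a5, the X-linked chain of a second collagen IV network, ran from 390.4 to 796 untreated and from 344 to 497 with Shh, which did not pass the test (-0.59, SE 0.22, limma adjusted p = 0.0533), although another of its probe sets did (-0.55, limma adjusted p = 0.00764). Col18a1, the basement membrane collagen whose end fragment is endostatin, fell 1.51-fold on average (-0.59, SE 0.09, limma adjusted p = 0.000752), and its call in wild type was lost without wild type replicate 1 or 5 or wild type Shh replicate 7 or 9 (adjusted p up to 0.147). Another Col18a1 probe set missed the threshold in wild type (-0.26, limma adjusted p = 0.11).

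The start regions of Col4a1 and Col4a2 are printed because the pair had nearly the same fall and shares this DNA. The windows are from RefSeq (GRCm38.p6), 300 bases each, 5′ to 3′ on the strand of the gene, at chr8:11312777-11313076 on the minus strand for Col4a1 and chr8:11312555-11312854 on the plus strand for Col4a2. Capitals mark the 78 bases that both windows hold, on opposite strands, and the start sites inferred from the positions of the windows are 21 bases apart. The RefSeq gene spans start at 11312889 for Col4a1 and at 11312805 for Col4a2.
Col4a1: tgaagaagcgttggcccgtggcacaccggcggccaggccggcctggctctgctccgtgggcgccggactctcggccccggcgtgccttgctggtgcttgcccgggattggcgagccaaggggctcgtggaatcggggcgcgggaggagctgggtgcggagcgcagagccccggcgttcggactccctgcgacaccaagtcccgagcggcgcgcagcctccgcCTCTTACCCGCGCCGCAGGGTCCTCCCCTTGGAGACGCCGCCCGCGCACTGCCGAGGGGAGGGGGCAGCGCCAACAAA
Col4a2: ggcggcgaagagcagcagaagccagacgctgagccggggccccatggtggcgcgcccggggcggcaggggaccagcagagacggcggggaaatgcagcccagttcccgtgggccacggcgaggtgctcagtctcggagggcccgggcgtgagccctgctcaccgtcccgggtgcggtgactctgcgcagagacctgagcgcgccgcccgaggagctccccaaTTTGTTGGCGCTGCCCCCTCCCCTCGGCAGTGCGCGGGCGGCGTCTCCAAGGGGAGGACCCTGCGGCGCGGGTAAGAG
RefSeq promoter windows were found for 27 of the 42 genes, 33 windows in all. They were searched on both strands for 4 motifs, none of which lies within another. The binding sequence of Gli factors, which carry the Shh signal, was spelled GACCACCCA and stood in 0 of 33 windows and in 0.253% of all 32851 windows. The CCAAT box stood in 36.4% of the matrix gene windows and 37.4% of all windows. The TATA box, spelled TATAAA, stood in 21.2% and 13.6%. The GC box, spelled GGGCGG, stood in 66.7% and 35.7%. A match describes these letters only and is not a site.

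Collagen VI forms beaded filaments around cells from 3 chains, and all 3 genes fell with Shh on average, with a median of -1.21 on the log2 scale. Col6a3 had signals of 161, 146 and 155 in wild type and 221, 184 and 214 in the knockout, against 68.2 and 47.7 in wild type with Shh and 94.3 and 90.4 in the knockout with Shh. The Shh arrays lay below the untreated ones, and in each condition the knockout arrays lay above the wild type ones. Col6a3 fell 2.45-fold on average (-1.29, SE 0.11, limma adjusted p = 1.98e-05). Col6a1 fell 2.32-fold (-1.21, SE 0.15, limma adjusted p = 0.000214), from 126 to 202 untreated to 67.9 to 74.2 with Shh. Col6a2, which lies near Col6a1 with only non-coding genes between them, had 183, 210.3 and 175 in wild type, 238, 197 and 219 in the knockout, 154 and 153 in wild type with Shh, and 197 and 144 in the knockout with Shh. Untreated and Shh arrays of Col6a2 overlapped, and its average fall of 1.26-fold (-0.33, SE 0.11, limma adjusted p = 0.0291) was lost in the fit with consecutive arrays as pairs (blocked adjusted p = 0.0669) and when any of 6 arrays was left out (adjusted p up to 0.112). The Col6a2 difference was near 0 after quantile normalization (-0.06, limma adjusted p = 0.623) and median centring (-0.01, adjusted p = 0.932).

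Laminins are the trimeric adhesion proteins of basement membranes, nidogens bridge laminin to collagen IV, and Hspg2 encodes perlecan, a heparan sulfate proteoglycan. Of 8 genes listed 6 were tested, and 5 fell with Shh on average, with a median of -1.95 on the log2 scale. Lama4, the laminin chain typical of vessel walls, had signals of 424, 285 and 225 in wild type and 376, 383 and 359.6 in the knockout, against 23.2 and 17.7 in wild type with Shh and 3.43 and 20.0 in the knockout with Shh. Of the 4 Shh arrays, 3 lay under the floor. Lama4 was at least 15.6-fold lower with Shh on average (-3.96, SE 0.15, limma adjusted p = 2.99e-07), among the widest differences of the matrix genes. Nid1 had 2179, 3070.2 and 2518 in wild type and 2882, 2781 and 2843 in the knockout, against 567 and 483 in wild type with Shh and 1028 and 698 in the knockout with Shh. All Shh arrays were lower, the knockout ones less so, and the average fall was 4.05-fold (-2.02, SE 0.13, limma adjusted p = 4.68e-06).

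Nid2 ran from 149 to 225 untreated and from 9.40 to 51.2 with Shh, a fall of at least 5.62-fold (-2.49, SE 0.23, limma adjusted p = 4.1e-05). Lamb1 and Lamc1 encode the beta and gamma chains shared by many laminins. Lamb1 fell 3.69-fold (-1.88, SE 0.11, limma adjusted p = 2.97e-06), from 576 to 813 untreated to 158 to 203 with Shh, while another of its probe sets missed the threshold in wild type (-0.57, limma adjusted p = 0.175) and in the knockout (-0.88, adjusted p = 0.0564). Lamc1 fell 1.90-fold (-0.92, SE 0.09, limma adjusted p = 5.17e-05), and its calls were lost with the mean of all its probe sets (-0.47 on average, adjusted p = 0.107). The untested Lama1 and Lama2 ran from 50.0 to 93.0 and from 82.0 to 163 untreated, and from 12.8 to 45.6 and from 3.78 to 47.6 with Shh, with no overlap in either. Hspg2 overlapped, with 179 to 281 untreated and 197 to 332 with Shh, and did not pass the test (0.10, SE 0.16, limma adjusted p = 0.645).

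**Figure D2:**
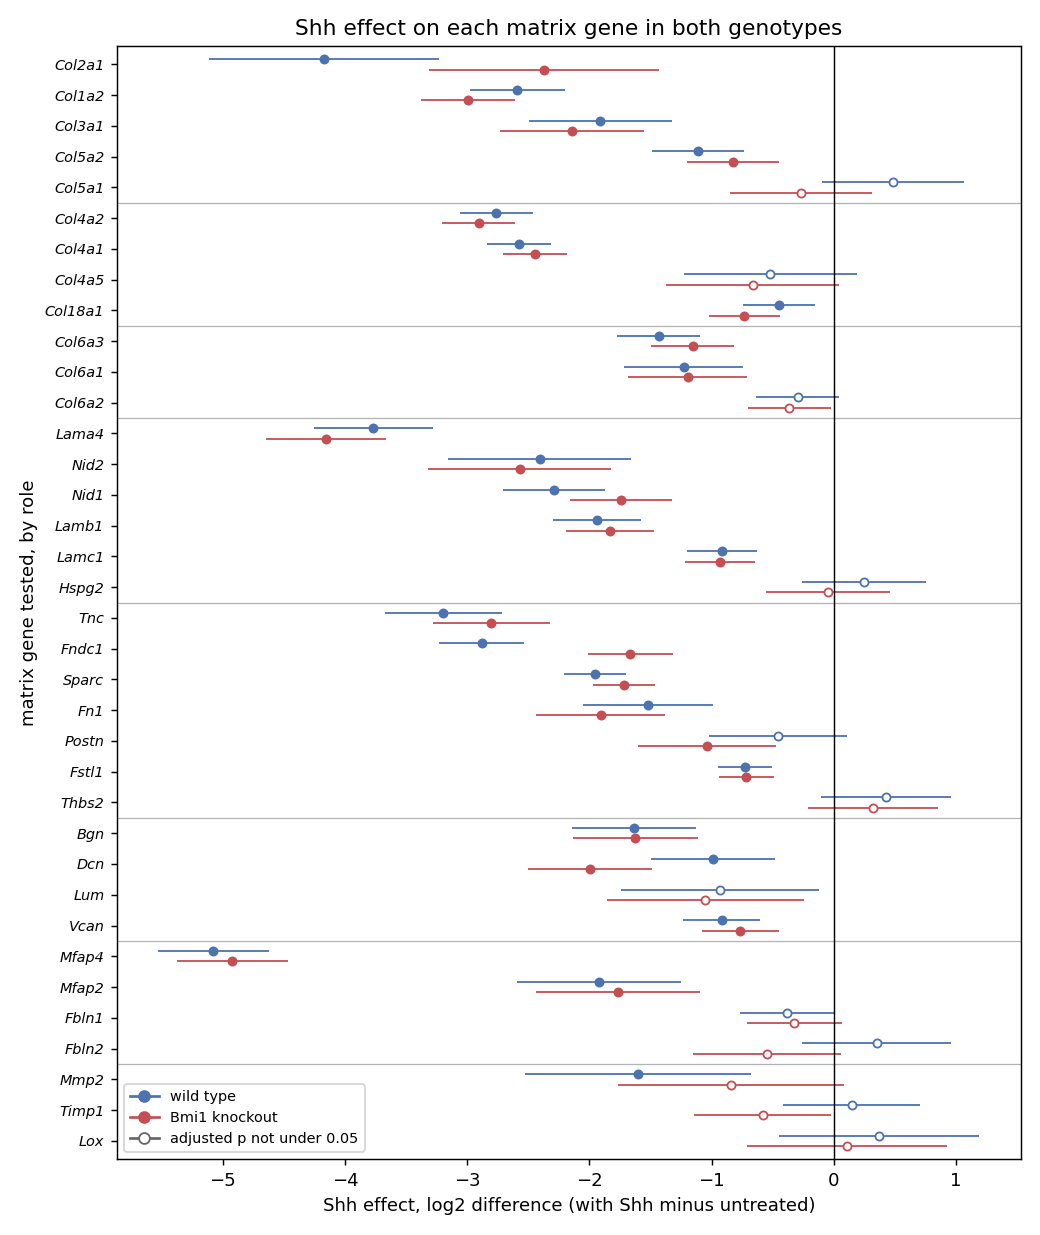
Difference between Shh and untreated arrays for the 36 tested matrix genes, as log2 signal with its 95% confidence interval, in wild type (blue) and in the Bmi1 knockout (red), ordered by role. Filled points passed an adjusted p of 0.05, all of them below 0, and Mfap4 has the widest difference at -5.08 in wild type and -4.92 in the knockout.

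Among the glycoproteins, 7 of 8 were tested and 6 fell with Shh on average, with a median of -1.71 on the log2 scale. Sparc, a collagen-binding matricellular protein, had signals of 8229, 7794 and 9015 in wild type and 7036, 6244 and 7590.1 in the knockout, against 2054 and 2245 in wild type with Shh and 2112 and 2105 in the knockout with Shh. The 4 Shh arrays were nearly equal and lay far below the rest, and Sparc fell 3.57-fold (-1.84, SE 0.08, limma adjusted p = 5.04e-07). Tnc, which encodes tenascin-C of immature brain and Bergmann glia, had 2084, 2609.9 and 2018 in wild type and 3401, 2247 and 2324 in the knockout, against 214 and 274 in wild type with Shh and 422 and 331 in the knockout with Shh. Tnc was lower on every Shh array and fell 8.00-fold (-3.00, SE 0.15, limma adjusted p = 1.17e-06).

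Fn1, which encodes fibronectin, fell 3.28-fold (-1.71, SE 0.17, limma adjusted p = 4.67e-05), from 841 to 1218 untreated to 244 to 410.2 with Shh. Fndc1, a fibronectin type III domain gene, had 146, 187 and 134 in wild type and 221, 176 and 185 in the knockout, against 8.41 and 8.82 in wild type with Shh and 57.8 and 63.9 in the knockout with Shh. Both wild type Shh arrays lay under the floor and both knockout Shh arrays above it. Fndc1 was at least 7.36-fold lower with Shh in wild type (-2.88, SE 0.15, limma adjusted p = 4.27e-06) and 3.18-fold lower in the knockout (-1.67, SE 0.15, adjusted p = 0.00012). Postn, encoding the matricellular protein periostin, fell in the knockout (-1.04, SE 0.25, limma adjusted p = 0.014) and did not pass the test in wild type (-0.46, adjusted p = 0.189), and the call in the knockout was lost without knockout Shh replicate 10 (adjusted p = 0.115). Fstl1, a secreted follistatin-like glycoprotein, fell 1.65-fold on average (-0.72, SE 0.07, limma adjusted p = 4.86e-05). The thrombospondins, matricellular regulators of adhesion and vessel growth, overlapped between conditions. Thbs2 ran from 64.5 to 86.5 untreated and from 68.5 to 118 with Shh (0.37, SE 0.17, limma adjusted p = 0.0961), and the untested Thbs1 from 33.7 to 67.5 and from 28.2 to 46.1.

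The proteoglycans were lower with Shh in each of the 4 tested of 5 listed genes, with a median of -1.24 on the log2 scale. Vcan, which encodes the large chondroitin sulfate proteoglycan versican, had signals of 1617, 1857 and 1410.2 in wild type and 2078, 1852 and 1823 in the knockout, against 842 and 871 in wild type with Shh and 1246 and 1018 in the knockout with Shh. Vcan did not overlap between conditions and fell 1.79-fold (-0.84, SE 0.10, limma adjusted p = 0.000135), while another of its probe sets missed the threshold in the knockout (-0.84, limma adjusted p = 0.0515). Bgn encodes biglycan, a small leucine-rich proteoglycan, and had 503, 449.7 and 366 in wild type and 424, 728 and 493 in the knockout, against 157 and 125 in wild type with Shh and 168 and 178 in the knockout with Shh. The untreated arrays of Bgn spread widely but all lay above the Shh arrays, and Bgn fell 3.10-fold (-1.63, SE 0.16, limma adjusted p = 5.15e-05). Dcn and Lum, neighbours in the genome, encode decorin and lumican, which bind collagen fibrils. Dcn ran from 184 to 331 on untreated arrays, was 115 and 99.7 in wild type with Shh, and was 67.1 and 51.8 in the knockout with Shh. It fell by 0.99 on the log2 scale in wild type (SE 0.22, limma adjusted p = 0.00881) and by 2.00 in the knockout (SE 0.22, adjusted p = 0.000342), and the call in wild type was lost without wild type Shh replicate 9 (adjusted p = 0.0663). Lum fell on average (-0.99, SE 0.25, limma adjusted p = 0.0105) and passed the test in neither genotype alone (adjusted p = 0.0733 and 0.0557), and the average call was lost after quantile normalization (-0.67, adjusted p = 0.0615) and with the floor at the median (-0.39, adjusted p = 0.0949). Dpt, dermatopontin, was dim at 1.22 to 37.7 untreated and 5.16 to 27.2 with Shh.

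Microfibrils and fibulins make up the scaffold of elastic fibres, and 3 of 4 genes fell with Shh on average, with a median of -1.10 on the log2 scale. Mfap4, a microfibril-associated glycoprotein, had signals of 6314, 4248 and 6160.0 in wild type and 4752, 6109 and 7039.6 in the knockout, against 160.0 and 165 in wild type with Shh and 198 and 191 in the knockout with Shh. It was bright on every untreated array and low on every Shh array, with no array between. Mfap4 fell 33.8-fold in wild type (-5.08, SE 0.20, limma adjusted p = 7e-07) and 30.3-fold in the knockout (-4.92, SE 0.20, adjusted p = 9.24e-07). Mfap2 had 335, 344 and 293 in wild type and 607, 448 and 575 in the knockout, against 131 and 55.6 in wild type with Shh and 161 and 156 in the knockout with Shh. Mfap2 fell 3.59-fold on average (-1.84, SE 0.21, limma adjusted p = 0.000122). Fbln1 overlapped, with 571 to 979 untreated and 541 to 726 with Shh, and its average fall of 1.28-fold (-0.35, SE 0.12, limma adjusted p = 0.0384) was lost in the paired fit (blocked adjusted p = 0.0599) and when any of 8 arrays was left out (adjusted p up to 0.117). The Fbln1 difference was -0.03 after median centring (limma adjusted p = 0.812) and -0.14 with the mean of all probe sets (adjusted p = 0.412). Fbln2 did not pass the test (-0.10, SE 0.19, limma adjusted p = 0.697), and its sign turned when arrays were centred on their medians (0.22) or quantile normalized (0.18).

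Of the matrix enzymes and their inhibitor, 3 of 4 were tested and 1 fell on average, with a median of -0.22 on the log2 scale. Mmp2, a gelatinase that cleaves collagen IV, had signals of 99.0, 104 and 146 in wild type and 118, 168 and 143 in the knockout, against 4.23 and 67.9 in wild type with Shh and 78.3 and 79.9 in the knockout with Shh. The Shh arrays lay below the untreated ones, and wild type Shh replicate 7 lay under the floor. Mmp2 was at least 2.33-fold lower on average (-1.22, SE 0.29, limma adjusted p = 0.00731), and its call in wild type (adjusted p = 0.0154) was lost without that array. It did not pass the test in the knockout, where another of its probe sets did (-1.04, limma adjusted p = 0.00722). Timp1, an inhibitor of matrix metalloproteinases, had 148, 155 and 156 in wild type and 173, 131 and 108 in the knockout, against 155 and 185 in wild type with Shh and 67.6 and 119.8 in the knockout with Shh. Conditions overlapped in Timp1 (-0.22, SE 0.18, limma adjusted p = 0.335). Lox, the lysyl oxidase that cross-links collagen, ran from 49.2 to 115 untreated and from 66.3 to 111 with Shh (0.24, SE 0.26, limma adjusted p = 0.474).

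The other genes of matrix assembly, taken from lists of 152 genes outside the 42, moved in both directions. Of the 82 tested, 54 fell and 10 rose with Shh on average (limma adjusted p under 0.05), with a median of -0.79 on the log2 scale. The shares of all tested genes beside these counts and those of the lists that follow were 26.2% lower and 20.9% higher. Among other collagens, 6 of 9 fell and 3 rose. Col9a1, a fibril-associated collagen, ran from 797 to 936 untreated and from 1555 to 1829 with Shh and rose by 0.99 (SE 0.08, limma adjusted p = 1.22e-05), and Col23a1, a transmembrane collagen, had the widest fall of that list (-2.35, SE 0.14, limma adjusted p = 2.63e-06). Among other laminins and basement membrane genes, 4 of 7 fell and 1 rose. The 1 that rose was Lama5, a laminin chain of mature basement membranes, with 259 to 600.7 untreated and 798 to 1051 with Shh (1.22, SE 0.11, limma adjusted p = 2.66e-05).

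Of the brain matrix genes, such as lecticans, link proteins and tenascin-R, 9 of 11 fell and 0 rose, with a median of -1.38. Of the collagen processing genes 8 of 14 fell and 1 rose, and of the matrix proteases and inhibitors 9 of 14 fell and 2 rose. The widest fall of the protease list was that of Timp4, a metalloproteinase inhibitor (-2.71, SE 0.11, limma adjusted p = 3.9e-07). Of the elastic fibre and matricellular genes 11 of 14 fell and 1 rose, led by Vtn, which encodes vitronectin (-4.27, SE 0.20, limma adjusted p = 9.04e-07). Of the transforming growth factor beta genes 7 of 13 fell and 2 rose. Eng, encoding the co-receptor endoglin, had the widest fall of these (-2.93, SE 0.16, limma adjusted p = 1.54e-06), and the ligand gene Tgfb2 rose (1.01, SE 0.09, limma adjusted p = 3.33e-05). Vtn and Eng are also among the pericyte and endothelial markers below. The lists share further genes, so their counts are not independent.

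**Figure D3:**
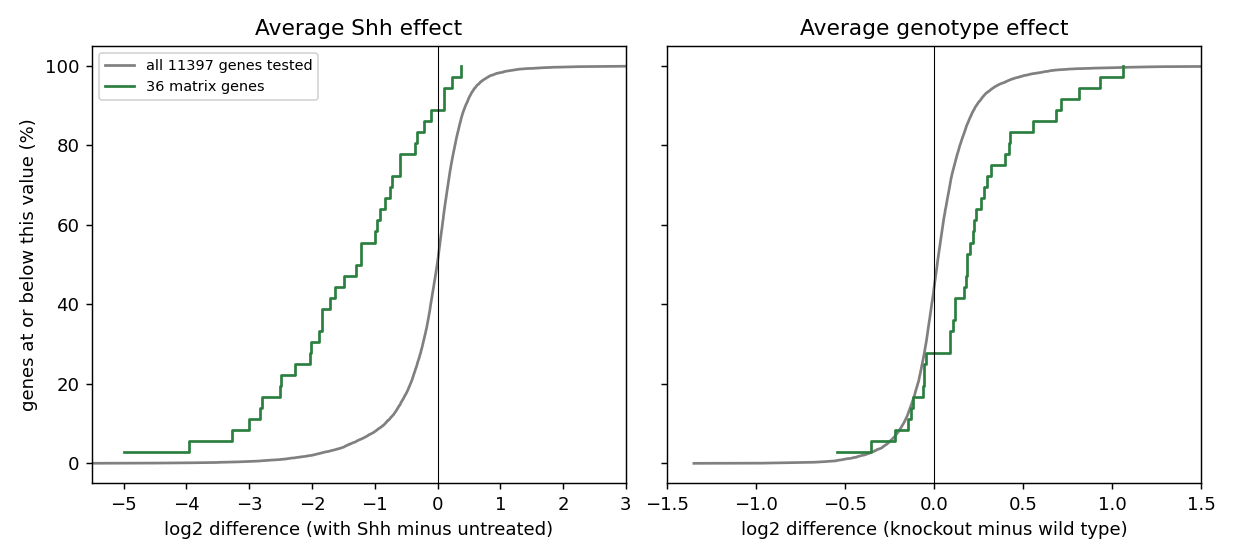
Cumulative percent of genes against the average Shh difference (left) and the average genotype difference (right) in log2 signal, for all 11397 tested genes (grey) and the 36 tested matrix genes (green). The matrix genes have a median of -1.26 against -0.01 for Shh and of 0.18 against 0.02 for genotype, and values beyond the axes are cut off.

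The summed markers of vessel cells were lower with Shh as well. Summed over each list, the signal of 13 endothelial markers was 6294 to 8489 in wild type and 6983 to 7089 in the knockout, against 539 to 645 and 454 to 486 with Shh. All 7 tested endothelial markers fell, with a median of -3.10 on the log2 scale, and the defining markers Pecam1 and Vwf lay at the floor on all 4 Shh arrays. The 13 pericyte and smooth muscle markers summed to 5654 to 5909 in wild type and 4968 to 6886 in the knockout, against 638 to 751 and 841 to 977 with Shh. Of 7 tested, 6 fell, while Tagln and Cnn1 lay at the floor on all 10 arrays. Genes of the marker lists and of the other matrix lists passed the same filter on the mean of all 10 arrays. Those bright only on untreated arrays could pass it, so a fall may be built into these counts. The matrix genes themselves summed to 37255 to 38654 in wild type and 39787 to 41278 in the knockout, against 11187 to 11581 and 12277 to 13813 with Shh. The part of vessel cells in the matrix results was not tested.

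Glial sums were also lower with Shh. Fibroblast and choroid plexus sums overlapped between conditions in wild type and were lower with Shh in the knockout. The 14 markers of astrocytes and Bergmann glia summed to 63352 to 81206 in wild type and 68960 to 71933 in the knockout, against 26432 to 28203 and 33110 to 36699 with Shh, and 11 of 14 tested fell and 1 rose. The 7 markers of the oligodendrocyte lineage summed to 30089 to 33170 and 25013 to 32908 untreated, against 8794 to 9182 and 11721 to 15431 with Shh, and 6 of 7 tested fell. The 12 microglia and macrophage markers summed to 7819 to 11230 and 6541 to 7297 untreated, against 4910 to 5332 and 3009 to 4147 with Shh, with 6 of 11 tested lower and 3 higher. The 23 fibroblast and meningeal markers that are not among the 42 genes summed to 10327 to 11631 and 11524 to 11982 untreated, against 10174 to 10491 and 10380 to 10918 with Shh. Of 11 tested, 7 fell and 3 rose, Pdgfra among those that rose (0.54), and Foxc2, Slc6a13 and Crabp2 lay at the floor on all Shh arrays. The 6 choroid plexus markers summed to 1504 to 2064 in wild type and 2009 to 2129 in the knockout, against 1290 to 1505 and 1522 to 1909 with Shh. Of 3 tested, 1 fell. Of the 11 tested precursor markers 2 fell and 2 rose. The part of these cell types in the matrix results was not tested.

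**Figure D4:**
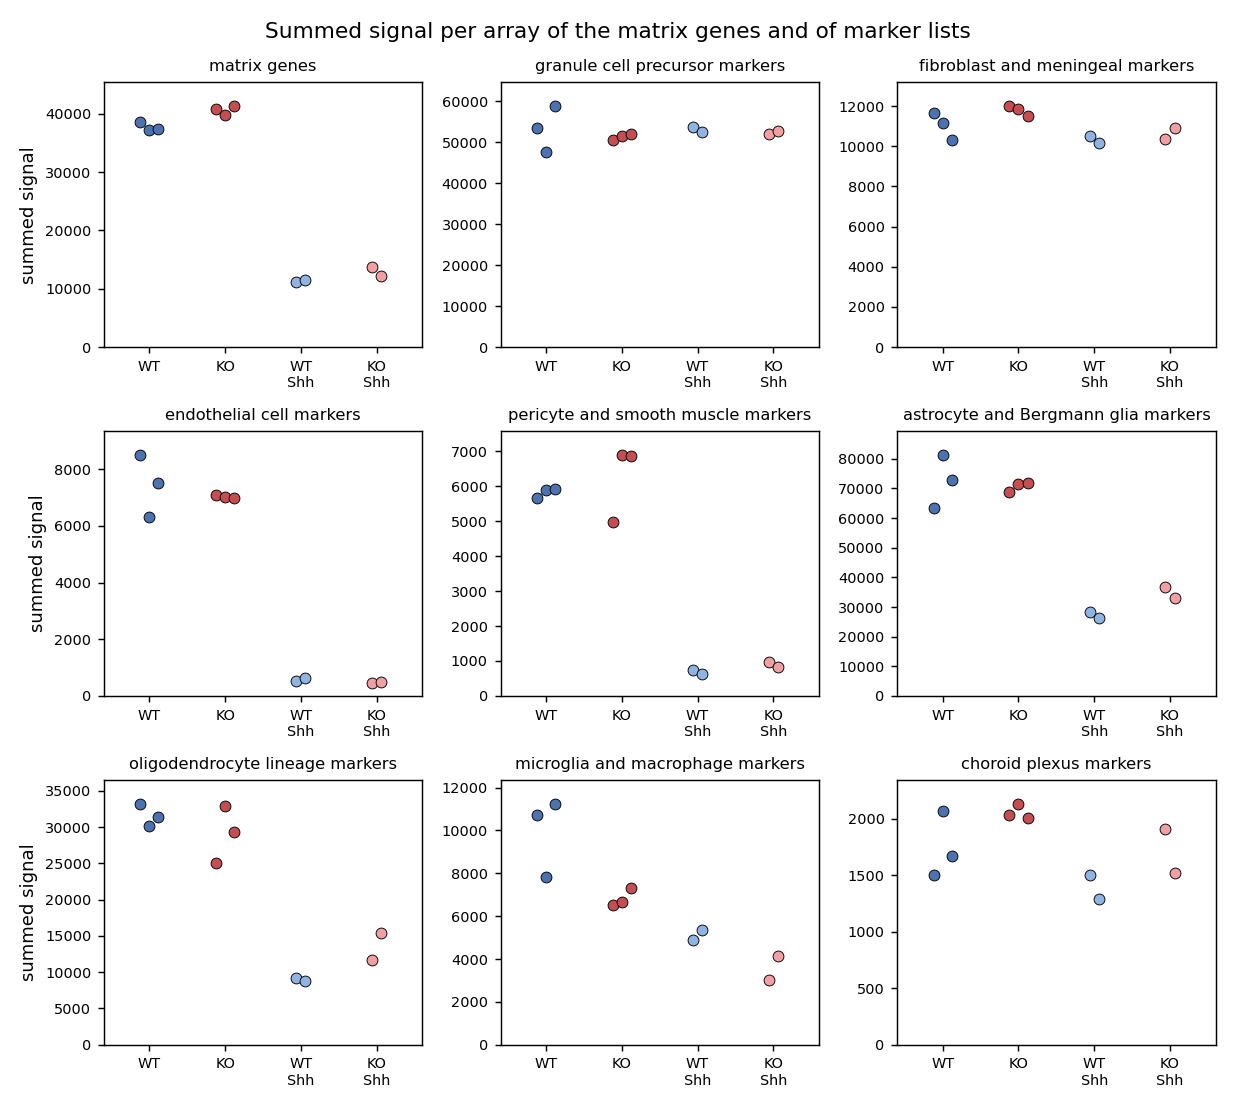
Summed signal of the matrix genes and of 8 cell type marker lists on each array, on linear axes that start at 0, with arrays by group. The matrix, endothelial, pericyte, astrocyte, oligodendrocyte and microglia sums are lower on all Shh arrays than on all untreated ones. The precursor, fibroblast and choroid plexus sums overlap when the genotypes are pooled.

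Between genotypes few matrix genes passed the test. Without Shh, 0 of 36 passed the test between Bmi1 knockout and wild type, where 0.377% of all genes did (0.325% higher, 0.0526% lower), and 7 were higher and 1 lower at an unadjusted p under 0.05 (limma), where 4.98% and 3.7% of all genes were. With Shh, 1 of 36 was higher in the knockout and 0 were lower, against 0.614% and 0.114% of all genes (0.728% in either direction). Averaged over both conditions, 2 of 36 were higher and 0 lower, against 1.22% and 0.325% of all genes (1.54% in either direction). At an unadjusted p under 0.05 (limma), 8 were higher and 2 lower with Shh, against 6.48% and 3.27% of all genes. On average 12 were higher and 1 lower at that threshold, against 8.21% and 4.76%. The knockout was nominally above wild type in 30 of 36 genes without Shh (83.3%, against 55.6% of all genes) and in 21 of 36 with Shh (58.3%, against 53.5%). The median difference was 0.22 on the log2 scale without Shh and 0.13 with it, where all genes had 0.02 and 0.01. The counts higher in the knockout were larger without wild type Shh replicate 7 and, with Shh, without wild type Shh replicate 9. Each of these fits leaves a lone wild type Shh array, which is assumed to vary like the others.

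Fndc1 was the gene that passed the test with Shh. Its signals given above put both wild type Shh arrays under the floor and both knockout Shh arrays at 57.8 and 63.9, so that it was at least 2.91-fold higher in the knockout with Shh (1.54, SE 0.17, limma adjusted p = 0.00478). Without Shh the groups overlapped (0.33, SE 0.14, limma adjusted p = 0.543). The difference between these genotype differences, 1.21 on the log2 scale (95% confidence interval 0.72 to 1.71), did not pass the test over all genes (adjusted p = 0.443). The call with Shh held without each of the 10 arrays in turn and was lost when signals were floored at the median or when the model was fitted on those 4 arrays alone. Averaged over conditions, Fndc1 was higher in the knockout (0.93, SE 0.11, limma adjusted p = 0.00351), which the floor at the median ended too (0.16, adjusted p = 0.599). Col6a3 was also higher on average, 1.47-fold (0.56, SE 0.11, limma adjusted p = 0.0406). All 5 knockout arrays of Col6a3 lay above the wild type arrays of the same condition. Its call was lost in the paired fit (blocked adjusted p = 0.0507) and when any of 9 arrays was left out (adjusted p up to 0.136).

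Several other genes had separate genotype groups and did not pass the test. With Shh such separation was common, as both knockout arrays lay above both wild type arrays in 18% of all genes with a symbol and below in 13.9%. The share without Shh was not counted. The genes given here are not all those with separate groups. Without Shh, Col5a1, Col4a2 and Fstl1 were also higher on every knockout array. Sparc went the other way without Shh, with 7794 to 9015 in wild type and 6244 to 7590 in the knockout. Fbln2 had signals of 88.8, 146 and 101 in wild type and 337, 177 and 245 in the knockout without Shh, with no overlap, and 137 and 142 against 157 and 179 with Shh. Its difference without Shh was 1.16 (SE 0.24, limma adjusted p = 0.121). Col18a1 had 1283, 1084 and 1336 in wild type and 1559.5, 1897 and 1941 in the knockout without Shh (0.54, SE 0.12, limma adjusted p = 0.133), and 936 and 866 against 1084 and 1070.2 with Shh. Mfap2 was higher on every knockout array within its condition, with an average difference of 0.82 (SE 0.21, limma adjusted p = 0.114). Col2a1 with Shh was higher in the knockout by 1.96 (SE 0.46, limma adjusted p = 0.122). Dcn and Timp1 with Shh were lower in the knockout by 0.86 and 0.91 (SE 0.25 and 0.27), with limma adjusted p of 0.217 and 0.24. The signals of Fbln2, Col18a1, Mfap2, Col2a1, Dcn and Timp1 are those of the plot of single genes.

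**Figure D5:**
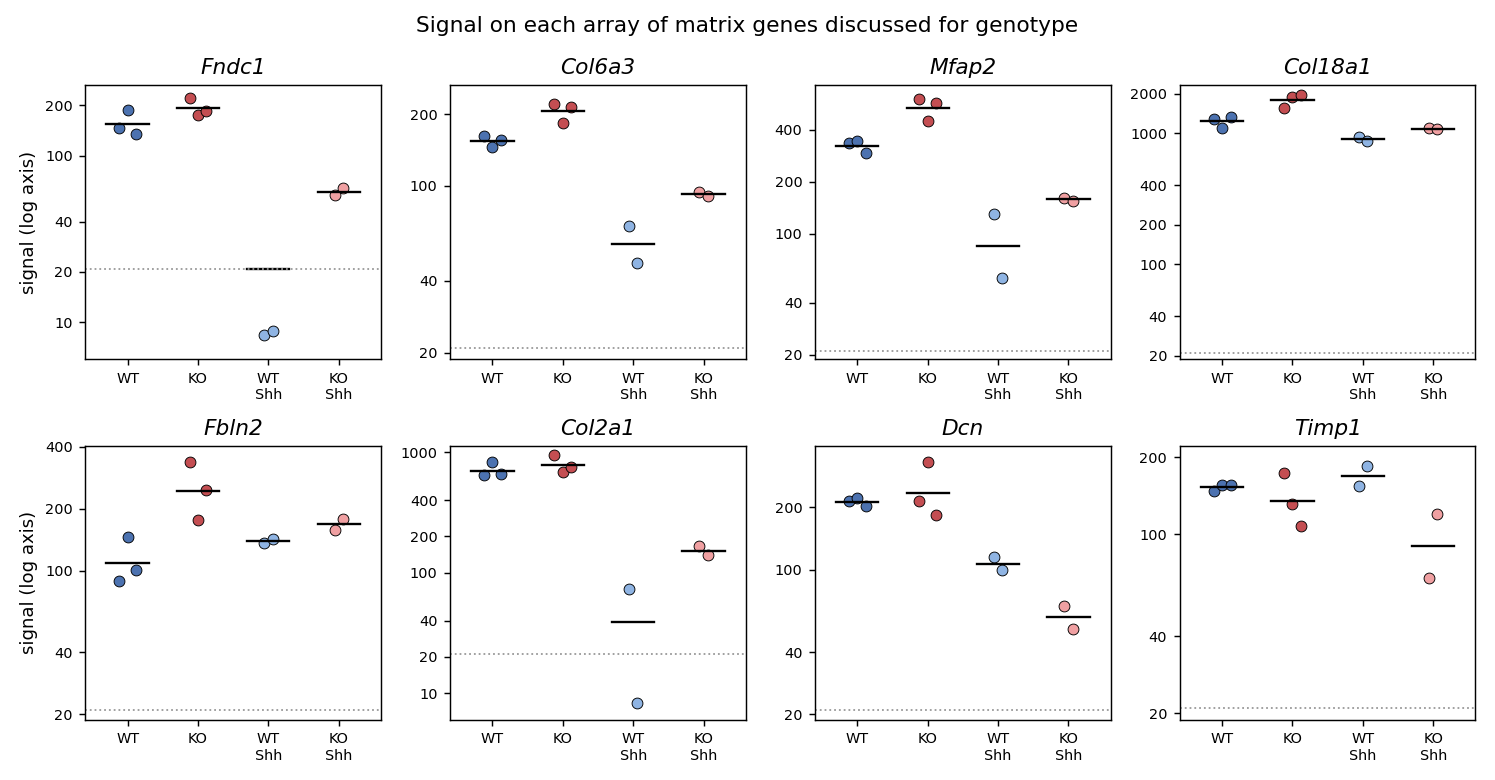
Signal on each array, on a log axis, of Fndc1, Col6a3, Mfap2, Col18a1, Fbln2, Col2a1, Dcn and Timp1 in wild type (WT) and Bmi1 knockout (KO) cultures without and with Shh, with bars for the mean of log2 signals after flooring and a dotted line at the floor of 20.9. Both wild type Shh arrays of Fndc1 lie under the floor, and in Col6a3 and Mfap2 each knockout array is above the wild type arrays of its condition.

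The response to Shh differed between genotypes in 0 of 36 matrix genes (limma interaction, adjusted p under 0.05), against 0.00877% of all tested genes, which is the single gene Igf2. At an unadjusted p under 0.05, Col2a1 and Fndc1 had a less negative difference in the knockout, and Dcn and Fbln2 a more negative one. For Col2a1 the interaction was 1.80 (95% confidence interval 0.47 to 3.13, limma adjusted p = 0.82). Its call changed without wild type Shh replicate 7, in a fit that leaves a lone array in that group. Igf2, an insulin-like growth factor made by meningeal and vessel cells and 1 of the 23 fibroblast and meningeal markers, had signals of 565 to 642 in wild type and 647 to 751 in the knockout without Shh, and of 130 to 138 and 404 to 426 with Shh. It was higher in the knockout with Shh by 1.64 (SE 0.11, limma adjusted p = 0.000323). Igf2 was the only 1 of the 11 tested markers of its list that passed the test between genotypes with Shh, and the list's sums overlapped. With signals floored, both knockout Shh arrays lay above both wild type Shh arrays in 10 of the 23 markers and below them in 2 (Islr and Pdgfra), as in 18% and 13.9% of all genes with a symbol. Of the 12 markers too dim to be tested, Foxc1, Foxd1, Tbx18 and Twist1 were above in this way and 0 were below. Of the 7 tested oligodendrocyte lineage markers, 3 were higher in the knockout with Shh, against 0.614% of all genes. Whether fibroblast or glial cells have a part in the genotype values of the matrix genes was not tested.

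Of the matrix genes outside the 42, Tnr, encoding tenascin-R of perineuronal matrix, was higher in the knockout with Shh (1.25, SE 0.16, limma adjusted p = 0.00946). So were Sparcl1, a relative of Sparc made by astrocytes (0.67, SE 0.12, limma adjusted p = 0.0379), and Matn4, a matrilin (0.96, SE 0.15, limma adjusted p = 0.0286). Of all tested genes, 0.614% were higher and 0.114% lower in this comparison. These genes are examples, and no count over the outside lists is given for it.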

How the data were processed

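Total RNA of 10 cultures was hybridized to 1 array each. The deposited values are linear signal intensity, made by the authors with MAS5 and GCOS 1.2 per the submitters' processing notes, and every array had a 2% trimmed mean of 500, so no further scaling was applied. Of 45101 probe sets, 64 controls were left out, 34945 carried 1 gene symbol, 932 several and 9160 none, and 34741 were matched to RefSeq (GRCm38.p6), which changed 0 symbols. No detection calls were used. Signals were floored at the 25th percentile (20.9, log2 4.39) before taking log2. The probe set with the highest mean stood for its gene, and genes at or above the median probe set (log2 6.26, signal 76.4) were tested. The floor understates the differences of dim genes. Folds are ratios of geometric means of floored signals, and those with an array at the floor are lower bounds.

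A mean per group was fitted to all 10 arrays with limma 3.58.1 in R 4.3.3 (lmFit, eBayes; 6 residual and 3.11 prior degrees of freedom), for 7 comparisons: genotype without and with Shh, Shh in each genotype, their interaction and both averages. Tests were two-sided, with Benjamini-Hochberg adjustment over genes within a comparison. SE is the standard error of the model. The script was tested on simulated data. Other probe sets of a gene were read from a second fit over 22492 probe sets.

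The members and gene lists were chosen with earlier results of these data known. Genes named were those with the largest differences in each role and each comparison by a written rule, and others are given by range and count. Arrays with consecutive running numbers deviated together from their group means (correlations of 0.278, 0.120 and 0.218 untreated and 0.160 with Shh), so they were also fitted as pairs, a pairing that comes from the data and not from the labels. Values of that fit are called blocked. Alternatives were quantile normalization, median centring, other floors, no filter, the mean of all probe sets, a fit of only the groups compared, a trended robust prior, leaving out each array, and leaving out both arrays with high 18S signal. The number of arrays limits the precision. Wild type replicate 3 is untreated by its title, although its protocol text also speaks of Shh. The labels give no batch that holds some arrays and not others.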

Additional observations from a re-analysis of the deposited data

How the results depend on the processing

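Counts of matrix genes that fell with Shh ranged over the alternatives from 22 of 30 tested (mean of all probe sets) to 27 of 41 (no filter) in wild type and from 22 of 30 to 28 of 41 in the knockout. As shares of the matrix genes tested they ran from 63.9% to 73.3% in wild type, 66.7% to 75% in the knockout and 69.4% to 83.3% on average. Of the falls, 21 of 25 in wild type, 22 of 25 in the knockout and 24 of 29 on average were called under every alternative in which the gene was tested. Among them Fndc1 and Lama4, and Dcn in the knockout and on average, were each left untested in an alternative. Calls lost by setting, beside those named in the results, were Dcn in wild type (-0.66), Postn in the knockout (-0.76) and Postn on average (-0.42) after quantile normalization, Col18a1 in wild type after median centring (-0.10) and without both arrays of high 18S signal (-0.42), Vcan in the knockout with the mean of all probe sets (-0.23), and Mmp2 in wild type with the floor at the median (-0.50), with no filter and with only the groups compared. The average fall of Col6a2 was also lost with no filter, with the trended robust prior and without both arrays of high 18S signal. That of Fbln1 was also lost after quantile normalization and with no filter. The average genotype call of Col6a3 was also lost after quantile normalization, after median centring and with the floor at the median. It was lost with no filter, with the trended robust prior and without both arrays of high 18S signal too. Signs that turned under scaling belonged to results that had not passed the test. The cause of the changes below was not tested.

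The count of matrix genes that rose with Shh, 0 in the main fit, was 1 in wild type and 1 on average after quantile normalization (Thbs2). Of all genes, 15.1% and 23.1% rose under that setting. After median centring the count was 4 in wild type (Col5a1, Fbln2, Hspg2 and Thbs2) and 3 on average (Col5a1, Hspg2 and Thbs2), against 45.5% and 55.2% of all genes. Median centring moved the median Shh difference of all genes to 0.31, and the share of called genes that fell from 55.6% to 19.8% on average, from 58.7% to 19.3% in wild type and from 60.6% to 20.5% in the knockout. The counts of matrix genes that rose also moved without wild type Shh replicate 7 (Col5a1) or knockout Shh replicate 8 (Thbs2). Each of these fits leaves a lone array in a group.

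With the floor at the median the 2 genes higher in the knockout on average were Col2a1 and Mfap2. The count higher in the knockout on average, 2, was 1 under quantile normalization, median centring, no filter, the mean of all probe sets, the replicate block and the omission of both arrays of high 18S signal, and 1 to 4 when 1 array was left out. With Shh the count of 1 became 0 with the mean of all probe sets and with only the groups compared, and 1 to 4 when 1 array was left out; the 4 came without wild type Shh replicate 7, when the lone array left in its group is assumed to vary like the others. Without Shh it was 1 with the trended robust prior (Col18a1), against 0. The interaction count of 0 became 1 with the floor at a signal of 1 (Fndc1), and 0 to 1 when 1 array was left out.

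In the paired fit, average falls numbered 27, without Col6a2 and Fbln1, and the replicate block changed no other call of a matrix gene than these and Col6a3. Over all genes, the number called ranged from 12 to 82 for genotype without Shh (43 in the main fit), from 3 to 135 with Shh (83), from 82 to 262 on average (176), from 0 to 8 for the interaction (1), from 2380 to 6425 for Shh in wild type (3852), from 1891 to 5483 in the knockout (3198) and from 4351 to 7835 on average (5372).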
